A study of Apeltes quadracus with 85 samples.

Results

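HOXD9B, a Hox gene of the HOXDB cluster, was followed along the body of Apeltes quadracus, a stickleback, through the single-nucleotide sites around it that RNA-seq reads cover. The sites were taken by position alone, from 16024518 to 16031519 on chromosome 6 of the Apeltes assembly made by the study, a window of 7002 bases around the HOXD9B variants at 16027923 and 16028519 that the study places in the 3′ untranslated part of the gene. The window held 40 of the 513939 sites listed in the series. Of these 40 sites, 16 separated the haplotypes, 17 had the same base in all fish and 7, clustered between 16027147 and 16027167, could not be assigned.

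The 11 fry came from Louisbourg parents and were raised to the finfold stage (stage 31) in the laboratory. Each carried a pair of different HOXDB haplotypes. The genotype was H/L in 4 fish, H/LHR in 3 fish and L/LHR in 4 fish, where H is the high-spine haplotype, L the low-spine haplotype and LHR a low-high recombinant. Going back along the body, RNA was sequenced from the first spine (DS1) through the fourth (DS4) and from a pterygiophore that bears no spine (Pter). It was also sequenced from the spine farthest back (DSL) and from the dorsal (DF) and anal (AF) fins. AF served the study as control tissue. The series holds no DS4 library of L/LHR replicates 2, 3 and 4, so that DS4 had 8 libraries and every other tissue 11. The paper states that DS4 formed in only some of the progeny. A DS4 library was present for all 7 fish with H and for 1 L/LHR fish. Genotype and having a DS4 library thus largely went together wherever fish with H are compared with L/LHR fish. All fish shared 1 source population and no fish was homozygous for a haplotype.

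Hox genes encode homeodomain transcription factors that give positional identity along the main body axis, and within a cluster their order on the chromosome follows the order in which they are expressed from anterior to posterior. Posterior Hox genes act mainly in the hind trunk, the tail and the paired and median appendages, and a change in where such a gene is active can change the identity of a repeated structure such as a vertebra. HOXDB is the b copy of the HoxD cluster left by the genome duplication of teleost fish.

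The fish were assigned to haplotypes by the study with a pair of PCR markers, shown here because every allele share below rests on them. The markers start at 16021998 (AQ-HOXDB_6) and 16022048 (AQ-HOXDB_7) on chromosome 6, 2520 and 2470 bases before the window, so that no site of the window was used for genotyping. Primers are written 5′ to 3′, F for forward and R for reverse.
AQ-HOXDB_6F: cagctgctcttaatgtcgcc
AQ-HOXDB_6R: caaagagggagagcagacgg
AQ-HOXDB_7F: gctgtgacttgtttcaaatgcc
AQ-HOXDB_7R: taagtggctcgcgtttaccg

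The haplotypes also differed within the window. Substitutions are written with the assembly base first, then the position on chromosome 6, then the other base. L carried a base of its own at 8 sites, among them A16028519G, A16028646T and T16028921C, LHR at 7 sites, among them C16027828T, A16027892T and A16027923G, and H at 1 site, T16029269C. L had the assembly base at all 16 sites. Thus 9 sites were informative in H/L fish, 8 in H/LHR fish and 15 in L/LHR fish. Of 122 fish and site pairs with 20 or more reads, 122 matched the genotype label of the fish, where the assignment itself had used reads summed over the fish of a genotype. Gene models for these positions were not used here, so that reads of the window are called HOXD9B by position and some may come from other transcripts, and the markers that would define each tissue were not examined because the tables name no genes.

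Depth, the sum of allele-counted reads in a library, ranged from 2.15 to 46.6 M reads (median 35.2 M), and 6 libraries were below 10 M (H/L replicate 1 and 3 in DS1, replicate 3 in DS4, replicates 3 and 4 in DSL, and L/LHR replicate 2 in DS3). Levels are given in RPM, the reads per 1 M reads of this depth. A read pair that covers several sites counts at each of them, so that sites of the window share reads. The window received 32001 reads in all, and 4 libraries, all from DS1, had none.

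HOXD9B reads were nearly absent from DS1, low in DS2 and most frequent in DSL. The mean window level was 0.0448 ± 0.0582 RPM in DS1, 1.26 ± 0.764 RPM in DS2, 11.3 ± 4.87 RPM in DS3 and 17.5 ± 1.77 RPM in DS4 (SD, n = 8 in DS4 and 11 elsewhere). It was 16.6 ± 4.15 RPM in Pter, 33.7 ± 9.8 RPM in DSL, 10.7 ± 2.65 RPM in DF and 11 ± 2.3 RPM in AF. The highest DS1 library (0.199 RPM) lay below the lowest DS2 library (0.203 RPM), and the highest DS2 library (2.63 RPM) below the lowest DS3 library (4.44 RPM). The spines thus did not overlap from DS1 to DS3, whereas the ranges of DS3, DF and AF did. The values 0.199 and 0.203 RPM are both of H/L replicate 2, with 8 window reads in either tissue. The gap between DS1 and DS2 therefore rests on depth alone (40.2 and 39.3 M reads). All 40 sites had their lowest mean level in DS1 and their highest in DSL. At 16025989, 16026100, 16026391 and 16026413 DS1 shared the lowest value, 0, with DS2. In such dissected pieces, fewer cells that express a gene and less RNA per cell cannot be told apart.

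**Figure D1:**
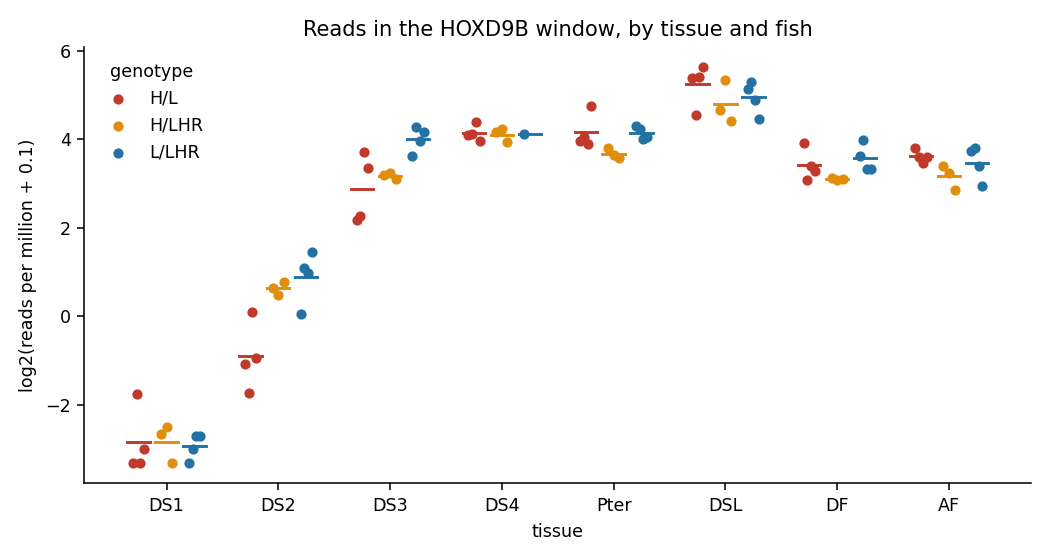
Level of the HOXD9B window as log2(RPM + 0.1) for each library by tissue from DS1 to AF. Points are fish, colours are genotypes and bars are genotype means. DS1 libraries lie below all DS2 libraries (at the edge 0.199 against 0.203 RPM), DS2 below all DS3 libraries, and the highest level is a DSL library at 49.5 RPM.

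Against AF, edgeR's quasi-likelihood test on 28471 tiles of the window's length gave the window a log2 fold change of -7.29 ± 0.32 in DS1 (SE; edgeR adjusted p = 1.78e-31), a value that rests on 19 DS1 reads. In DS2 the log2 fold change was -3.07 ± 0.21, which is 8.4-fold lower than AF (edgeR adjusted p = 2.72e-20). It rose in DS4 (log2 fold change 1.31 ± 0.21, edgeR adjusted p = 1.71e-06), in Pter (1.05 ± 0.18, edgeR adjusted p = 2.91e-06) and in DSL (1.84 ± 0.18, edgeR adjusted p = 5.86e-13). DS3 (0.39 ± 0.18, edgeR adjusted p = 0.106) and DF (-0.10 ± 0.18, edgeR adjusted p = 1) did not pass the threshold of 0.05. With fish as a block, since libraries of 1 fish share its number, DS3 passed at 0.35 with an edgeR adjusted p of 0.0492. These contrasts called many tiles, 19.5% of them in DS1, 24.7% in DS2, 25.3% in DS3, 20.1% in DS4, 31.7% in Pter, 14% in DSL and 0.327% in DF, so a call alone does not set the window apart.

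The size of these changes depends on the scaling. The TMM factors of edgeR, which correct for differences in library composition, were lower in DS1 to DSL than in AF, by -0.23 (DSL) to -0.55 (DS4) log2 units, which raised the edgeR fold changes of these tissues relative to those on RPM. On RPM DS4 exceeded AF by 0.67, Pter by 0.58 and DSL by 1.58 in mean log2(RPM + 0.1), and DS3 differed by -0.07 (exact sign-flip adjusted p = 0.813), the other direction from that in edgeR.

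In the order of mean log2 level, which ran DSL, DS4, Pter, AF, DF, DS3, DS2, DS1, some neighbours did not differ beyond the spread between fish. DSL exceeded DS4 in 8 of 8 fish (0.94 ± 0.44 log2 units, SD; exact sign-flip permutation adjusted p = 0.0137). Pter exceeded AF in 11 of 11 fish by 0.58 ± 0.30, DS3 exceeded DS2 in 11 of 11 fish by 3.20 ± 0.61, and DS2 exceeded DS1 in 11 of 11 fish by 3.04 ± 1.22 (exact sign-flip adjusted p = 0.00228 each). In H/L replicate 2, DS2 exceeded DS1 through depth alone, with 8 window reads in either tissue. DS4 and Pter differed by 0.14 ± 0.44, AF and DF by 0.05 ± 0.27, and DF and DS3 by 0.02 ± 0.71, with exact sign-flip adjusted p between 0.569 and 0.957. On TMM-scaled RPM, tried after the data were seen, DS3 stood above AF and DF, and DF minus DS3 was -0.44 (exact sign-flip adjusted p = 0.119).

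Within the window, 3 stretches differed in reads per site, which is a description chosen after the values were seen. The 3 sites from 16025269 to 16025791 had 845 to 1539 reads each, the 23 sites from 16025813 to 16027262 had 64 to 384, and the 14 sites from 16027651 to 16029269 had 514 to 2573. The last stretch, which holds both variants of the study, supplied 72.6% of the window reads over all libraries and 71.5% to 75.5% in each tissue from DS2 to AF. The middle stretch supplied 18.3% of the reads in DS2 (exact binomial 95% interval 14.8% to 22.3%) and 14.8% in AF (13.8% to 15.9%). Its part was 12.9% in DS4 (11.9% to 14.1%) and 16.8% in DSL (16.1% to 17.6%), intervals that do not overlap but leave out the spread between fish. The last stretch thus gave most of the reads in 7 tissues that differed widely in level, while the part of the middle stretch varied. In DS1 the 19 reads were too few to show a profile.

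**Figure D2:**
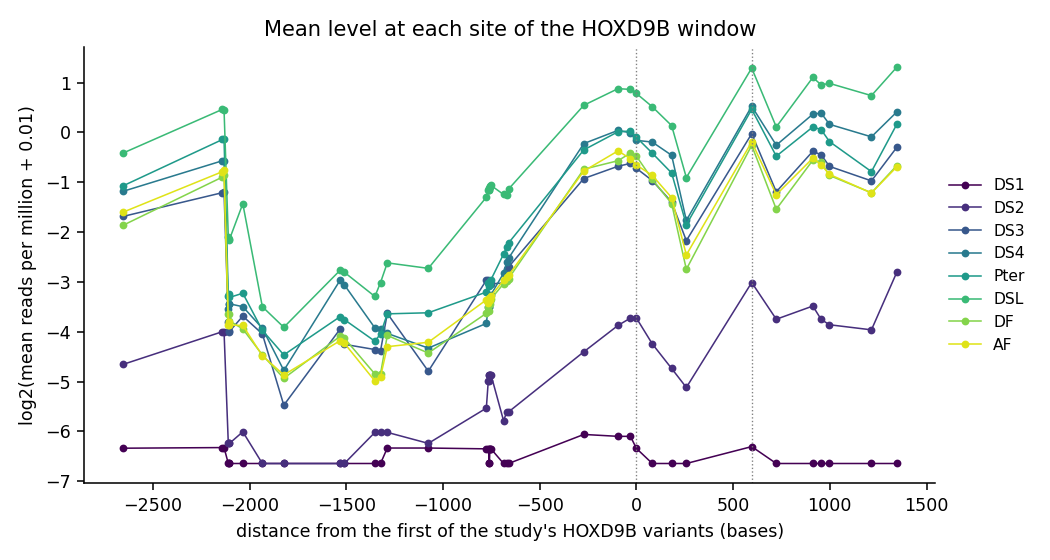
Mean level at each of the 40 sites, as log2(mean RPM + 0.01), against distance in bases from the first HOXD9B variant of the study. Lines are tissues and dotted lines mark both variants of the study. From DS2 to AF the middle stretch is generally low, and DSL lies above the other tissues at every site.

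At both variants of the study, too, DS1 had the lowest and DSL the highest mean level. At 16027923 the mean was 0.00233 ± 0.00772 RPM in DS1, 0.0656 ± 0.0621 RPM in DS2, 0.597 ± 0.217 RPM in DS3, 0.886 ± 0.169 RPM in DS4, 0.924 ± 0.325 RPM in Pter, 1.71 ± 0.441 RPM in DSL, 0.709 ± 0.274 RPM in DF and 0.626 ± 0.226 RPM in AF. At 16028519, the site with the most reads (2573), the mean was 0.00265 ± 0.00877 RPM in DS1, 0.114 ± 0.0837 RPM in DS2, 0.973 ± 0.371 RPM in DS3, 1.43 ± 0.354 RPM in DS4, 1.37 ± 0.438 RPM in Pter, 2.44 ± 0.753 RPM in DSL, 0.826 ± 0.235 RPM in DF and 0.867 ± 0.227 RPM in AF. At 16029269, the site that marks H, no read was found in any DS1 library and the mean was 0.133 ± 0.104 RPM in DS2, 0.803 ± 0.506 RPM in DS3, 2.47 ± 1.11 RPM in DSL and 0.61 ± 0.229 RPM in AF.

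In DS3 of fish with H the haplotypes contributed more unequally than in AF, while in DS3 of L/LHR fish they were closer to equal than in AF. Summed over the informative sites, H gave 21 of 218 reads in DS3 of H/L fish (9.63%, exact binomial 95% interval 6.06% to 14.3%), against 188 of 495 in their AF (38%, 33.7% to 42.4%). In H/LHR fish H gave 22 of 277 reads in DS3 (7.94%, 5.04% to 11.8%), against 168 of 338 in AF (49.7%, 44.2% to 55.2%). In L/LHR fish, which lack H, L gave 363 of 717 reads in DS3 (50.6%, 46.9% to 54.3%), against 425 of 677 in AF (62.8%, 59% to 66.4%). These intervals leave out the spread between fish and treat the summed counts as independent. A read pair can count at several sites, so that they can be too narrow even for counting error.

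Fish by fish, the H share in DS3 was 9.3%, 10%, 1.32% and 20.3% in H/L replicates 1 to 4, against 38.9%, 36.6%, 36% and 40.2% in AF of the same fish. It was 5.13%, 8.91% and 9.18% in DS3 of H/LHR replicates 1 to 3, against 51.4%, 49.6% and 48.1% in AF. The L share in DS3 of L/LHR replicates 1 to 4 was 57.7%, 55.3%, 52.7% and 44.6%, against 67.8%, 60.5%, 60.1% and 61.4% in AF. All 7 H carriers were below their own AF by a wide gap, and the 4 L/LHR fish were below theirs by a narrower one.

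The log2 ratio of H to the other haplotype was lower in DS3 than in AF in 7 of 7 H carriers, with a mean change of -3.06 ± 1.17 (SD) and a range of -4.83 to -1.36. The exact sign-flip permutation test gave p = 0.0156, the smallest that 7 fish allow, and an adjusted p of 0.172 over the 11 tests of tissue and class, which does not pass. With 11 tests a change confined to DS3 could not have passed at any size, so that this outcome does not speak to the change. The log2 ratio of L to LHR in L/LHR fish changed by -0.59 ± 0.29 in DS3, below 0 in 4 of 4 fish (exact sign-flip adjusted p = 0.275, the unadjusted p being the smallest that 4 fish allow). Compared as independent libraries instead of within fish, DS3 and AF of H carriers differed with an exact permutation adjusted p of 0.00641. Its unadjusted p was the smallest that such a comparison allows. Both tissues came from the same 7 fish, and libraries of 1 fish were alike (median correlation 0.46). The libraries were thus not independent, and this value does not replace the test within fish.

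DS2, where the gene was low, gave few reads but the same direction. H supplied 2 of 67 informative reads in DS2 of H/LHR fish (2.99%, exact binomial 95% interval 0.364% to 10.4%), with 1 of 21, 1 of 15 and 0 of 31 reads in replicates 1 to 3. In DS2 of H/L fish H supplied 1 of 13 reads (7.69%, 0.195% to 36%), too few in every library for a ratio. The 3 H/LHR fish had a log2 ratio change of -4.32 ± 1.37 between DS2 and AF (exact sign-flip p = 0.25, the smallest that 3 fish allow, adjusted p = 0.393).

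The balance of L and LHR was also different in DS2. L supplied 31 of 97 informative reads in DS2 of L/LHR fish (32%, exact binomial 95% interval 22.9% to 42.2%), so that LHR gave most of the reads there, against 62.8% from L in AF. By fish the L share in DS2 was 35.3%, 22.6%, 26.1% and 46.2% in replicates 1 to 4, all below the lowest AF share of 60.1%. The log2 ratio of L to LHR changed by -1.78 ± 0.62 between DS2 and AF (exact sign-flip adjusted p = 0.275), which does not pass and cannot with 4 fish. In DS1 the 7 H carriers had 3 informative reads in all, 0 of them from H, and the L/LHR fish had none, so that no share can be given there.

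From Pter backwards the share of H was close to that in the fins, and in DS4 it was somewhat lower. In H/L fish it was 30% in DS4, 42% in Pter, 45.4% in DSL, 37.6% in DF and 38% in AF, with reads summed over the fish. In H/LHR fish it was 41.3% in DS4, 46.3% in Pter, 53.7% in DSL, 49.8% in DF and 49.7% in AF. In DSL of H/L fish the sites disagreed. The H share was 48.9% at the 8 sites where L has its own base (37.7% in AF). At the site that marks H it was 36.4% (39% in AF). By fish, the DS4 share of H was 18.9%, 35.6%, 26.3% and 40.3% in H/L replicates 1 to 4 and 44.1%, 39.9% and 40% in H/LHR replicates 1 to 3. In DS4 the log2 ratio of H carriers changed by -0.50 ± 0.47 against AF, below 0 in 6 of 7 fish (exact sign-flip p = 0.0312, adjusted p = 0.172). In DSL the H share was 47.8%, 47.9%, 19.5% and 44.6% in H/L replicates 1 to 4, the low value being that of a shallow library (4.78 M reads), and 45.4%, 59% and 55.1% in H/LHR replicates 1 to 3. The changes were 0.08 ± 0.33 in Pter, 0.13 ± 0.66 in DSL and -0.00 ± 0.32 in DF, with exact sign-flip adjusted p between 0.688 and 0.969. The L share in L/LHR fish was 57.3% in DS4 (replicate 1 alone), 56.1% in Pter, 56% in DSL, 62.2% in DF and 62.8% in AF. In AF of replicate 1 it was 67.8%, and the log2 ratio of that fish changed by -0.65 in DS4. The log2 ratio of L/LHR fish changed by -0.39 ± 0.32 in Pter, -0.40 ± 0.29 in DSL and -0.08 ± 0.42 in DF against AF (exact sign-flip adjusted p between 0.275 and 0.688).

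**Figure D3:**
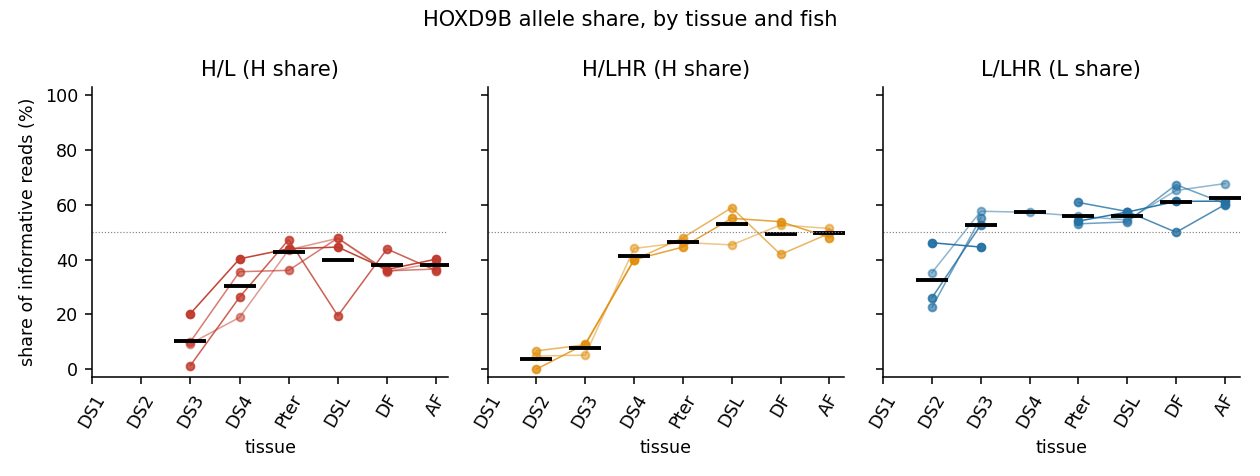
Share of informative HOXD9B reads from H (H/L and H/LHR fish) or from L (L/LHR fish) against tissue. Thin lines join the tissues of 1 fish, black bars are means, and libraries under 12 informative reads are left out. The H share is 20.3% or lower in every DS3 library, while the L share in DS3 lies between 44.6% and 57.7%.

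The site-by-site scan followed the study's test, Fisher's exact test on reads summed over the fish of a genotype against AF, with p-values adjusted over all heterozygous sites that passed the read filter. In DS3, 2 of the 4 HOXD9B sites that could be tested were called in H/L fish, where 5.41% of 8293 sites of the series were called. In H/LHR fish 5 of 6 were called, where 3.33% of 9350 were called. Among L/LHR fish 0 of 8 were called by Fisher's exact test, where 6.14% of 6452 were called. Of these L/LHR sites 3 had an unadjusted p under 0.05. The called sites share reads and are not independent of each other. They include both variants around which the window was placed. The paper had already reported these as different between DS3 and AF in the same H/L and H/LHR fish. The counts of called DS3 sites beside the share of the series are therefore no independent support.

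In DS2 of H/LHR fish 3 of 5 HOXD9B sites were called, where 5.53% of the series was called, and the count was 0 without replicate 1, without replicate 2 and without replicate 3. The 3 called sites lie close together, so that a read pair can count at each of them. In its account of H/L fish the paper left DS1 and DS2 unassessed, since too few reads were counted there. No HOXD9B site was called in the other scans, but several of these could not have given a call: the tested sites had 0 or 1 read each in DS1 of every genotype and 1 to 6 reads in DS2 of H/L fish. For H/L fish the share of the series called was 8.46% in DS1, 5.99% in DS2, 4.05% in DS4, 3.41% in Pter, 5.12% in DSL and 2.3% in DF. It was 4.64% in DS1 of H/LHR fish, 2.72% in DS4, 3.83% in Pter, 3% in DSL and 1.96% in DF. It was 5.92% in DS1 of L/LHR fish, 5.95% in DS2, 4.98% in DS4, 5.54% in Pter, 7.38% in DSL and 2.15% in DF. The DS4 scan of L/LHR fish set reads of 1 fish against AF reads of 4 fish. In these scans without a call, at most 3 HOXD9B sites (DS2 of L/LHR fish) had an unadjusted p under 0.05. The calls of Fisher's exact test depend on how fish enter the test. edgeR's quasi-likelihood test with fish as replicates and no block called almost no site of the series, 0.0121% in DS3 of H/L fish, 0% in DS3 of H/LHR fish, 0.0155% in DS3 of L/LHR fish and 0% in DS2 of H/LHR fish. In these scans it called 0 HOXD9B sites, with an unadjusted p under 0.05 at 2 of 4, 6 of 6, 1 of 8 and 4 of 5 sites. With allele by fish terms as the block, edgeR called 1 of 4 HOXD9B sites in DS3 of H/L fish, where it called 1.19% of the series, and 4 of 6 in DS3 of H/LHR fish, where it called 1.23%. It called 0 of 8 in DS3 of L/LHR fish, where it called 1.16% of the series, and 0 of 5 in DS2 of H/LHR fish, where it called 1.35%, with an unadjusted p under 0.05 at 1 and 4 of these sites.

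At A16028519G the H base (shared with LHR) made up 7 of 76 reads in DS3 of H/L fish (9.21%), against 69 of 161 in AF (42.9%; Fisher's exact adjusted p = 3.51e-06). At T16029269C, the one base found only on H, it was 6 of 47 reads in DS3 (12.8%), against 41 of 105 in AF (39%; Fisher's exact adjusted p = 0.025). At T16028921C it was 5 of 41 (12.2%), against 31 of 96 in AF (32.3%; Fisher's exact adjusted p = 0.193). The H share at 16028519 was 28% in DS4, 45.3% in Pter, 46.8% in DSL and 40.7% in DF. All 4 H/L sites with 20 or more DS3 reads had an H share below that in AF, between 9.09% and 12.8%, against 32.1% to 42.9%. The 5 informative sites of the middle stretch, with few reads each, gave 0 of 21 reads from H in DS3, against 22 of 55 in AF. If these counts were independent, 0 of 21 would allow a share of up to 14.3%.

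At T16029269C, H supplied 2 of 71 reads in DS3 of H/LHR fish (2.82%), against 24 of 58 in AF (41.4%; Fisher's exact adjusted p = 4.59e-06). At A16027892T H supplied 3 of 44 reads in DS3 (6.82%), against 27 of 58 in AF (46.6%; Fisher's exact adjusted p = 5.55e-04). At A16027923G it supplied 2 of 49 reads in DS3 (4.08%), against 31 of 65 in AF (47.7%; Fisher's exact adjusted p = 9.50e-06). In DS2 H supplied 0 of 15 reads at A16027923G, which allows a share of up to 20% (Fisher's exact adjusted p = 0.00742). At A16027892T it was 0 of 14 reads, which allows up to 21.4% (adjusted p = 0.0147 by the same exact test), and at C16027828T, the third site called in DS2 and named here after its value was seen, 0 of 12 (adjusted p = 0.0484). The H share at A16027923G was 42.2% in DS4, 43.9% in Pter, 54.3% in DSL and 48.3% in DF. The 5 H/LHR sites with 20 or more DS3 reads had H shares between 2.82% and 12.8%, against 41.4% to 60% in AF. Beside these, A16028105C and G16028181A, where 19% and 18.9% of the reads were of low mapping quality, had H in 5 of 15 and 3 of 14 DS3 reads (33.3% and 21.4%), against 18 of 26 and 8 of 12 AF reads (69.2% and 66.7%). Both were higher in either tissue than the other H/LHR sites and lower in DS3 than in AF.

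L supplied 64 of 134 reads at A16028519G in DS3 of L/LHR fish (47.8%), against 73 of 118 in AF (61.9%; Fisher's exact adjusted p = 0.235). At A16027892T it supplied 41 of 87 reads in DS3 (47.1%), against 57 of 91 in AF (62.6%; Fisher's exact adjusted p = 0.31). At C16027828T it supplied 45 of 86 in DS3 (52.3%), against 63 of 103 in AF (61.2%; Fisher's exact adjusted p = 0.674). At A16027923G it supplied 37 of 77 in DS3 (48.1%), against 50 of 78 in AF (64.1%; Fisher's exact adjusted p = 0.321). Of the 9 L/LHR sites with 20 or more DS3 reads, 8 had a lower L share in DS3 than in AF. The exception was A16029138C, with 37 of 66 reads in DS3 (56.1%) against 24 of 53 in AF (45.3%).

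**Figure D4:**
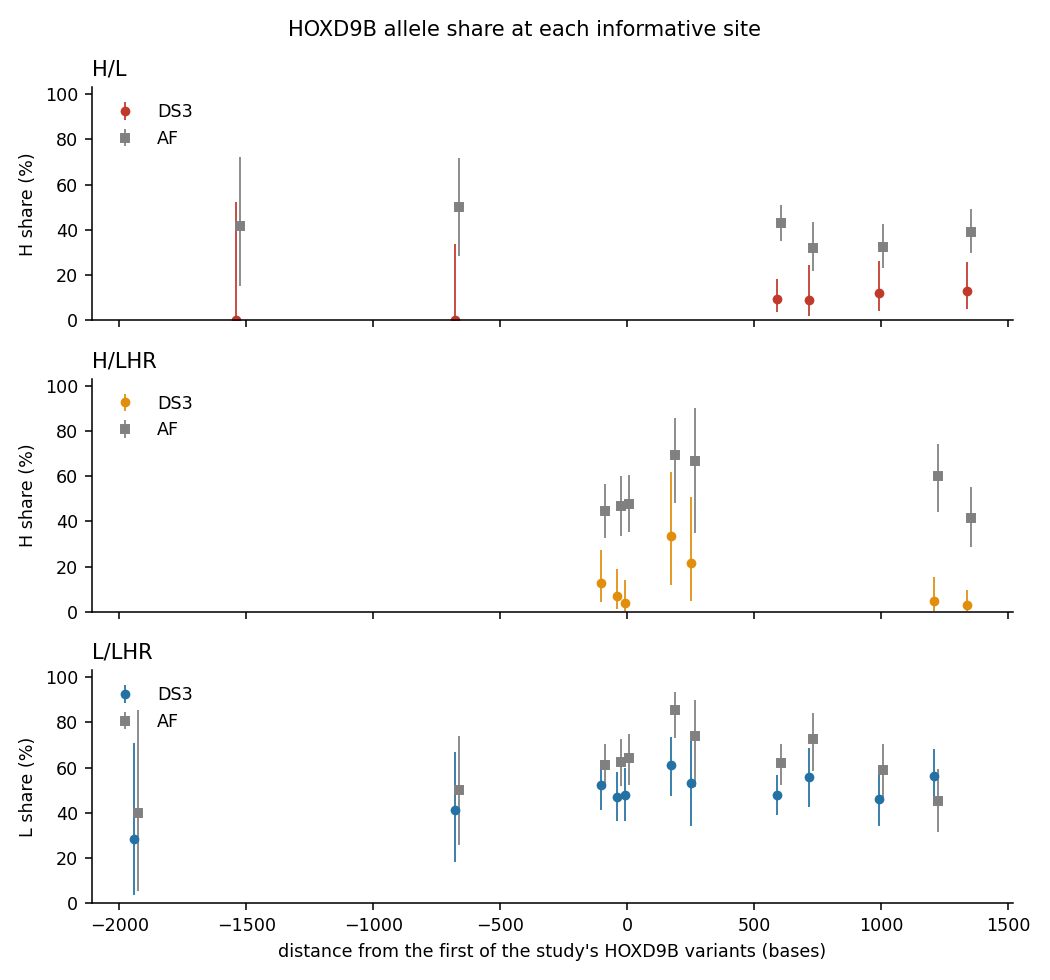
Share of reads from H (H/L and H/LHR fish) or from L (L/LHR fish) at each informative site with 5 or more reads in both tissues, against distance in bases from the first HOXD9B variant of the study. Circles are DS3, squares AF, and bars are exact binomial 95% intervals of reads summed over the fish. At sites with 20 or more DS3 reads, the H share in DS3 ends at 12.8% (2 sites with fewer reads in H/LHR fish reach 33.3% and 21.4%), while the L share in DS3 spans 45.9% to 61%.

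The assembly base was favoured in the counts. Over the heterozygous sites of a library with 20 or more reads its mean share was 56.3% to 59% (range over libraries), and of 20 genotype and site pairs of HOXD9B with 20 or more AF reads it exceeded 50% in 15 (44.4% to 85.5%). The L haplotype carries the assembly base at all 16 sites, and L gave more than 50% of AF reads in both H/L and L/LHR fish. Its part in these shares was not tested. The log2 ratio changes given here were also computed with the assembly base of each library scaled to a share of 50%, as one of the alternatives counted below. Because that share was similar in all libraries, the scaling largely cancels between a tissue and AF. It could therefore hardly change these values and is no test of the favoured base. Among H/LHR fish, H has the assembly base at the LHR sites, with 51.4% of AF reads, and the other base at the H site, with 41.4%, while in DS3 the H share was 9.71% at the LHR sites and 2.82% at the H site.

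The DS3 change was compared between genotypes. The log2 ratio changed by -3.50 between DS3 and AF in H/LHR fish (between -4.13 and -3.13) and -0.59 in L/LHR fish (between -0.98 and -0.31), without overlap. The exact permutation test over 35 arrangements gave p = 0.0286, the smallest it can give, and an adjusted p of 0.0571 over both genotype comparisons, which does not pass. It could have passed only if the other comparison had also reached its smallest p. The change was -2.73 in H/L fish (between -4.83 and -1.36), and H/L and H/LHR fish differed by 0.78 (exact permutation p = 0.429), or by 0.32 to 1.48 with 1 fish left out. At T16029269C, the 1 site informative in both of them, the difference was 2.26 (exact permutation adjusted p = 0.1), the H ratio falling less in H/L fish. This comparison was added after the data were seen. H/L replicate 2, with 0 reads from H and 6 from L there in DS3, was under 12 reads and left out. With so few fish the exact permutation p could not have been under 0.05.

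Given as levels, H reads were few from DS1 to DS3 and the other haplotype of the same fish was more frequent. In the 7 H carriers H informative reads were at 0.0374 to 0.53 RPM in DS3 (median 0.169), against 1.01 to 1.72 RPM in AF (median 1.16), without overlap. They fell by 2.31 ± 0.74 in log2(RPM + 0.1) in 7 of 7 fish (exact sign-flip p = 0.0156, the smallest that 7 fish allow, adjusted p = 0.0243). Every haplotype level test at that limit had the same adjusted p, which depends on how many of them reached it. The L or LHR haplotype of the same fish was at 0.987 to 3.13 RPM in DS3 (median 2.53), against 1.16 to 2.37 RPM in AF (median 1.75), and differed by 0.22 ± 0.87 (exact sign-flip adjusted p = 0.5). In DS2, H was at 0 to 0.0327 RPM, with no H read in 4 of 7 fish and 3 H reads of 80 in all. There the L or LHR haplotype was at 0 to 0.822 RPM (median 0.435) and fell by 2.41 ± 1.45 against AF in 7 of 7 fish (exact sign-flip adjusted p = 0.0243). In DS1 H had no read, and the other haplotype had 3.

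Further back, in DSL, both haplotypes rose above AF. There H reached 1.67 to 8.06 RPM and the L or LHR haplotype 2.66 to 6.9 RPM, higher than AF by 1.49 ± 0.52 and 1.38 ± 0.42 on the log2 scale in 7 of 7 fish each (exact sign-flip adjusted p = 0.0243 each). In Pter H rose by 0.51 ± 0.38 (exact sign-flip adjusted p = 0.0243), and the L or LHR haplotype differed by 0.44 ± 0.44 (exact sign-flip adjusted p = 0.0795). In DS4 the L or LHR haplotype rose by 0.93 ± 0.37 in 7 of 7 fish (exact sign-flip adjusted p = 0.0243), and H differed by 0.43 ± 0.54 (exact sign-flip adjusted p = 0.101). In DF the L or LHR haplotype fell by 0.27 ± 0.18 against AF in 6 of 7 fish (exact sign-flip adjusted p = 0.0437), a call that did not pass when 1 fish was left out, except for H/LHR replicate 3 (exact sign-flip adjusted p up to 0.0875). On TMM-scaled RPM the H haplotype in DS4 (0.92, exact sign-flip adjusted p = 0.0365) and the L or LHR haplotype in Pter (0.89, exact sign-flip adjusted p = 0.0199) passed as well. Log2 differences of levels near 0 depend on the 0.1 RPM added.

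**Figure D5:**
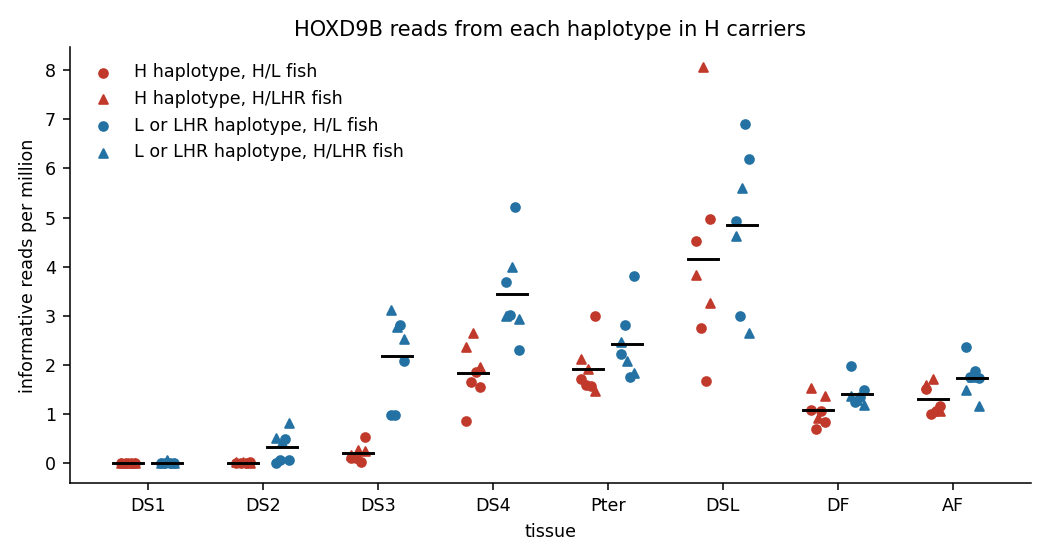
Level of informative HOXD9B reads, in RPM, from the H haplotype (red) and from the L or LHR haplotype (blue) in each of the 7 H carriers, by tissue. Circles are H/L fish, triangles H/LHR fish and bars are means. In DS3 the H points end at 0.53 RPM, below every point of the other haplotype, while in DSL both haplotypes reach above 6 RPM.

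The whole window was also lower in DS3 of H carriers than of L/LHR fish. Its level was 4.44, 4.71, 13 and 10.2 RPM in H/L replicates 1 to 4 and 9.12, 9.33 and 8.46 RPM in H/LHR replicates 1 to 3, against 12.2, 19.2, 15.6 and 17.9 RPM in L/LHR replicates 1 to 4. Among H carriers, H/L replicate 3 alone reached into the L/LHR range. edgeR gave a log2 fold change of -1.14 ± 0.27 (SE; edgeR adjusted p = 0.0147), in a contrast that called 0.516% of tiles, 144 of these 147 tiles lower in H carriers. L/LHR replicate 2 is the shallow DS3 library (5 M reads). Without it the log2 fold change was -0.78 (edgeR adjusted p = 0.329), and the call also did not pass without H/L replicate 1 (-1.03), H/LHR replicate 1 (-1.16), H/LHR replicate 3 (-1.06) or L/LHR replicate 3 (-1.30), with edgeR adjusted p between 0.0565 and 0.2. The exact permutation test of genotype on log2(RPM + 0.1) gave -1.0 with an adjusted p of 0.145.

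In DS2 the window was at 0.376, 0.203, 0.979 and 0.425 RPM in H/L fish and 1.45, 1.3 and 1.62 RPM in H/LHR fish, against 0.933, 2.04, 1.89 and 2.63 RPM in L/LHR fish. 3 of the 4 H/L fish had the lowest values, and H/L replicate 3 and all H/LHR fish lay above the lowest L/LHR fish. The log2 fold change of H carriers against L/LHR was -1.10 ± 0.32 (edgeR adjusted p = 0.938, unadjusted p = 9.93e-04), in a contrast that called 0% of tiles. In the other tissues it was 0.99 ± 0.94 in DS1, -0.34 ± 0.43 in DS4, -0.22 ± 0.26 in Pter, -0.04 ± 0.26 in DSL, -0.41 ± 0.26 in DF and -0.09 ± 0.26 in AF, with edgeR adjusted p of 0.935 or above. The share of tiles called was 0.00351% in DS1, 0% in DS4, 0% in Pter, 0.00351% in DSL, 0.014% in DF and 0.00702% in AF.

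Over the 85 libraries, the tile whose level was most like that of HOXD9B was its neighbour on chromosome 6, from 16017516 to 16024517 (Pearson r = 0.947 of log2 CPM among 28470 tiles). This tile holds the genotyping markers and the variant at which the paper scored HOXD11B, another gene of the HOXDB cluster. Next came tiles at 10247868 to 10254869 and 10254870 to 10261871 on chromosome 12 (r = 0.889 and 0.796), 9099540 to 9106541 on chromosome 16 (r = 0.802) and 9582678 to 9589679 on chromosome 20 (r = 0.773). The libraries share fish and tissues, so that these values describe likeness over tissues and carry no test.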

How the data were processed

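RNA-seq libraries were made by the study with a stranded mRNA kit from 8 tissues of 11 fry. Before deposit the authors trimmed reads (Trim Galore with cutadapt 2.4), mapped them with STAR in 2 passes to their Apeltes assembly, and counted reads of each allele with GATK 4.1.4.1. The deposited tables hold raw counts of reads per allele and site, 1 table per library, with no normalization. Duplicate handling and correction for mapping bias are not given in the sources used here. Haplotypes were read from the genotype homozygous at a site (95% or more of 20 or more reads). The members and lists were chosen with earlier results of these data known.

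A Fisher scan, one per genotype and tissue, kept sites heterozygous in each fish with over 12 reads a fish (tissue and AF together) and a minor share over 5%, and used an FDR of 0.05. edgeR 4.0.16 in R 4.3.3 was run on alleles with fish as replicates and on tiles of 7002 bases with at least 10 counts in 8 libraries, with TMM factors. DESeq2 was an alternative. Allele ratios had 0.5 added to each count and needed 12 informative reads, which 15 libraries did not reach. RPM had 0.1 added. Exact sign-flip and permutation tests treated fish as replicates, with Benjamini-Hochberg adjustment within each family. The Fisher scan and the edgeR fits on alleles and on tiles were tried on simulated data. The sign-flip and permutation tests were tried on small sets of numbers with known answers, and the other steps had no such trial. Alternatives were other read minimums, pseudocounts, filters, size factors and control tissue, libraries of 10 M or more, fish left out and unpaired fits. For allele ratios, scaling the assembly base to a share of 50% was a further alternative. Pairing by fish comes from the fish number in the labels. Deviations from group means in 280 library pairs of 1 fish had a median correlation of 0.46, and 270 pairs were over 0.1. The median was -0.22 for different fish of the same genotype. Taking off the mean of so few fish pushes that value below 0, so that it is no neutral baseline. Sites given in full are both variants of the study and, per genotype, the 3 informative sites with most reads. The tiles named are the 5 with the highest correlation. Intervals are exact (Clopper-Pearson, 95%), and a share of 0 is limited by 3 counts of the total. Per-sample columns not used numbered 0.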

Additional observations from a re-analysis of the deposited data

Results flagged for a closer look

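Values far from the rest of their group, which chance gives in about 1 of 20 groups, were found in 3 of 25 groups examined. H/L replicate 2 had 0.199 window RPM in DS1, against 0, 0 and 0.0257 RPM in the other H/L fish. The value rests on 8 reads counted over the sites, which can share read pairs, and the libraries at 0 are shallow (2.15 and 9.32 M reads, against 40.2 M). H/L replicate 4 had 26.9 window RPM in Pter, against 14.8, 15.4 and 16.4 RPM. H/L replicate 1 had an allele ratio change of -1.44 in DS4, against -0.58 to 0.01 in the other 6 H carriers. The DS3 change differed between H/LHR and L/LHR fish by -2.92 log2 units (exact permutation p = 0.0286, adjusted p = 0.0571), every H/LHR fish lying below every L/LHR fish.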

How the results depend on the processing

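Of 793 values under alternatives for 55 results, 735 counted as the same, and 20 changed sign where neither value passed. For tests, the same means the same direction and side of the threshold. For counts of called sites, it means a count equal or close to the main one. Tests with too few fish to pass at any size also count as the same, so that 735 does not measure robustness. In Fisher scans the called DS3 sites in H/L fish were 2, 1 at an FDR of 0.01, 0 by edgeR without a block, 1 by edgeR with the fish block and 1 to 3 with a fish left out. In H/LHR fish they were 5, 0 by edgeR without a block and 3 to 4 with a fish left out. Outside DS3 the count in H/LHR fish was 3, 1 at an FDR of 0.01, 0 by edgeR with or without the block, and 0 without any 1 fish. In L/LHR fish it was 0, and 0 to 2 with a fish left out. In H/L fish it was 0, and 1 without libraries under 10 M. The cause of these shifts was not tested. edgeR with the block could not be fitted for DS4 of L/LHR fish.

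The DS3 window level against AF was 0.39, 0.35 (adjusted p = 0.0492) with the fish block and -0.07 by sign-flip on RPM. H carriers against L/LHR in DS3 was -1.14, -0.78 (adjusted p = 0.251) without libraries under 10 M, -1.0 (adjusted p = 0.145) by exact permutation, and -1.30 to -0.78 with a fish left out. In tissues with no call it was 0.00 in DS4 and 0.11 in DSL by exact permutation, and with a fish left out it ranged from -0.05 to 1.29 in DS1, -0.20 to 0.15 in DSL and -0.23 to 0.07 in AF. Without pairing (no replicate block), the allele ratio change of H carriers passed in DS2 (-3.93, exact permutation adjusted p = 0.0458) and DS3 (-3.06, adjusted p = 0.00641), the L or LHR haplotype level passed in Pter (0.44, adjusted p = 0.0367) and did not in DF (-0.27, adjusted p = 0.0965). The unpaired DS2 value set 3 H/LHR fish against AF of all 7 H carriers, 4 of them H/L, so that tissue and genotype were mixed. Unpaired tests also treat libraries of 1 fish as independent, which they are not. The Pter ratio of H carriers was -0.02 at only the study's variants. With a fish left out, ratio changes ranged from -0.02 to 0.14 in Pter and -0.08 to 0.07 in DF of H carriers and from -0.25 to 0.09 in DF of L/LHR fish, and the DS3 difference of H/L and H/LHR fish from 0.32 to 1.48. Haplotype levels ranged from 0.37 to 0.63 for H in DS4 and from -0.31 to -0.23 for L or LHR in DF, and DF minus DS3 from -0.15 to 0.10. On TMM-scaled RPM, chosen after seeing the data, DF minus DS3 was -0.44, H in DS4 was 0.92 and L or LHR in Pter was 0.89. No site of the window was listed in every library, so that restriction gave no value for the window. Haplotype calls were the same at 99% for all 16 sites. Informative reads were at most 3 per library in DS1 and 31 in DS2, which limits the shares there.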
